A study of Mus musculus with 3 samples.

Results

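C/D box small nucleolar RNAs (snoRNAs) were taken as every annotated gene whose symbol starts with Snord or Rnu3, and this gave 109 gene IDs with 103 symbols among 55536 annotated genes. They were 64 to 238 bases long, with a median of 86, and 108 were annotated as snoRNA. Snord43 was annotated as miRNA, but the tables give it a length of 108 bases. The data came from total RNA-seq of primary macrophages that had been differentiated from bone marrow of the C57BL/6J strain. The cells had been treated for 10 min with 100 ng/ml of Lipid A, the portion of bacterial lipopolysaccharide sensed by the receptor TLR4. Sequencing was of RNA that stayed with chromatin on cell fractionation, after depletion of ribosomal RNA. There was 1 group of 3 libraries, called biological replicates 1, 2 and 3, with starting amounts of 1 µg, 250 ng and 500 ng of RNA. The stated size range was 250 to 400 for all. Since no amount was used for more than 1 library, amount and replicate cannot be told apart. All carry 1 donor entry, and p-values and spreads may therefore measure partly technical variation. No unstimulated library was used, so no value below shows an effect of Lipid A.

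The C/D box snoRNAs are stable, mostly intron-encoded RNAs of the nucleolus and Cajal bodies. They bind the proteins Nop56, Nop58, Snu13 and the methyltransferase fibrillarin. Most guide methylation of the ribose 2′-hydroxyl at chosen positions of ribosomal or spliceosomal RNA, by base pairing upstream of the D box. A few, of which U3 is the most abundant, act in cleavage of the ribosomal RNA precursor. H/ACA box snoRNAs, the other class, guide pseudouridylation, and with the related small Cajal body RNAs (symbols starting with Snora or Scarna) they formed a set of 51 genes for comparison.

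The sequences below are those of the members on which the results turn: the U3 genes, the longest and best-counted guides, U22, U8, the short member with the most counts, and a copy from an imprinted cluster. They are the GENCODE M21 transcripts, in mm10 coordinates, written 5′ to 3′ on the RNA's own strand. Capitals mark the C box letters TGATGA and the D box letters CTGA that were nearest to the expected ends. Rnu3a lies at chr10:40258467-40258680 (plus strand), with no host gene on that strand. Rnu3b4 is at chr11:87462286-87462501 (plus), in an intron of Tex14. Snord17 is at chr2:144265979-144266216 (minus), in an intron of Snx5. Snord15b, at chr7:99479563-99479707 (minus), and Snord15a, at chr7:99482785-99482932 (minus), are both in Rps3. Snord22 (U22) is at chr19:8725866-8725991 (plus) in Snhg1, and Snord118 (U8) has its own gene at chr11:69073427-69073561 (plus). Snord21 is at chr5:107904555-107904648 (plus) in Rpl5, and Snord116l1 at chr7:59894620-59894713 (minus) in an intron of Snhg14.
Rnu3a: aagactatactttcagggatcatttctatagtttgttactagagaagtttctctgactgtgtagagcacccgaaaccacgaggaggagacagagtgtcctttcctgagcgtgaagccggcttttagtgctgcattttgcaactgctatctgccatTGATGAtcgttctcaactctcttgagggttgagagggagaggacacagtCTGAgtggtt
Rnu3b4: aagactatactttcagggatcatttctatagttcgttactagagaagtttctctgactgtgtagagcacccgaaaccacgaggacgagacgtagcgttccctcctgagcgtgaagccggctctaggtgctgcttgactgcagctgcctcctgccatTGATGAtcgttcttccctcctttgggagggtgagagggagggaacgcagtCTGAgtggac
Snord17: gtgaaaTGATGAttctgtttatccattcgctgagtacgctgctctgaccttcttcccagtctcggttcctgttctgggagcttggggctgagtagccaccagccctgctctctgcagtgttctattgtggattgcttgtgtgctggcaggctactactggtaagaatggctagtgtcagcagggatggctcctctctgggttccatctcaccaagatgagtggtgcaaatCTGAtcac
Snord15b: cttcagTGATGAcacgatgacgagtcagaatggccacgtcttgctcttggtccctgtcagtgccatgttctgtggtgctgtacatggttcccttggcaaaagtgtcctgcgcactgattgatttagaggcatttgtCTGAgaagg
Snord15a: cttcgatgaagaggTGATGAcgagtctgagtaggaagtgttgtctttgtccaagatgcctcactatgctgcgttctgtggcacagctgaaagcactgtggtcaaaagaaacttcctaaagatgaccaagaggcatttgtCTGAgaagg
Snord22: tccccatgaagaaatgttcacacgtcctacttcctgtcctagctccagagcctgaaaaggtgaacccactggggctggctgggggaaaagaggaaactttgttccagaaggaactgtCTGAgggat
Snord118: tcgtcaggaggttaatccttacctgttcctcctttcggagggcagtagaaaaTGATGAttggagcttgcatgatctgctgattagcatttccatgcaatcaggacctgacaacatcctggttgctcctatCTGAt
Snord21: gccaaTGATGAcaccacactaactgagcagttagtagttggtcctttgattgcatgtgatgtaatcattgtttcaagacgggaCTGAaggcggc
Snord116l1: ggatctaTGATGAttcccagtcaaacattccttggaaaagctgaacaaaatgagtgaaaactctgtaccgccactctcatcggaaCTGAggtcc
Of the 109 members, 70 (64.2%) held both TGATGA starting within 25 bases of the 5′ end and CTGA starting within the last 20 bases. Of the 51 H/ACA and Cajal body RNAs, 4 (7.84%) held both, and of 32851 RefSeq promoter windows of 86 bases, 13 (0.0396%) did. CTGA, with or without TGATGA, was near the 3′ end of 107 members (98.2%), against 19.6% of the H/ACA set and 8.54% of the promoter windows. Members without the exact C box letters at that place included the U3 genes, whose TGATGA lies far inside the RNA, and Snord22, which holds none. A match is a description of letters only. Rnu3a and Rnu3b4 were identical at 85.2% of positions, and Snord15a and Snord15b at 64.2%.

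Annotated genes received 15698066, 16005795 and 14386725 estimated counts in replicates 1, 2 and 3. Detection was set at a TPM (the usual length-normalised transcript abundance) of 1 in every library. All 8 macrophage markers examined were detected, with a summed TPM of 606 to 1233. None of 13 markers of T cells, B cells, neutrophils, erythroid cells and fibroblasts was. Their summed TPM was 0.710 to 1.43, and Cd3e, Cd3g, Lck, Elane and Hba-a1 were at 0. These are bulk values, in which fewer cells of a type and less RNA per cell cannot be told apart.

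In the gene table, the C/D box snoRNAs with values were the long ones. The gene table divides each estimated count by an effective length, which is the number of positions where a fragment of the library could start. Effective length was 0 for every gene up to 122, 123 and 119 bases in replicates 1, 2 and 3. That covered 94 of the 109 members, all of 111 bases or less. The 15 members with an effective length were 126 bases or longer: the 10 U3 gene IDs, Snord17, Snord15a, Snord15b, Snord22 and Snord118. Each of these 15 was detected, which makes 15 of 109 members (13.8%), against 26 of 51 H/ACA and Cajal body RNAs (51.0%) and 24.4% of all genes. The H/ACA set is longer, with a median of 133 bases, and only 2 or 3 of its genes had an effective length of 0 in a library. Apart from the 15, 1 member had any count, Snord89 with 1 count in replicate 2. In all, 16 of 109 members had 0.5 count or more in some library (44.6% of all genes did).

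The second transcript table, made by the authors directly from the reads, gave effective lengths of 12.8 to 18.6 bases to the same 94 short members. It assigned them 1062, 2963 and 4842 estimated counts in replicates 1, 2 and 3, which was 2.98%, 11.0% and 15.7% of all C/D counts there. Of the 94, 61 had 0.5 count or more in some library, 40 in all 3, and 33 in none. Over all members, 76 of 109 had such a count, against 45 of 51 H/ACA and Cajal body RNAs and 61.9% of all genes. By the same threshold 51 members were detected in that table (46.8%), against 38 H/ACA and Cajal body RNAs (74.5%) and 36.5% of all genes. Most of the short members at 0 in the gene table thus had counts in the second, and why the gene table lacks those counts was not tested.

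**Figure D1:**
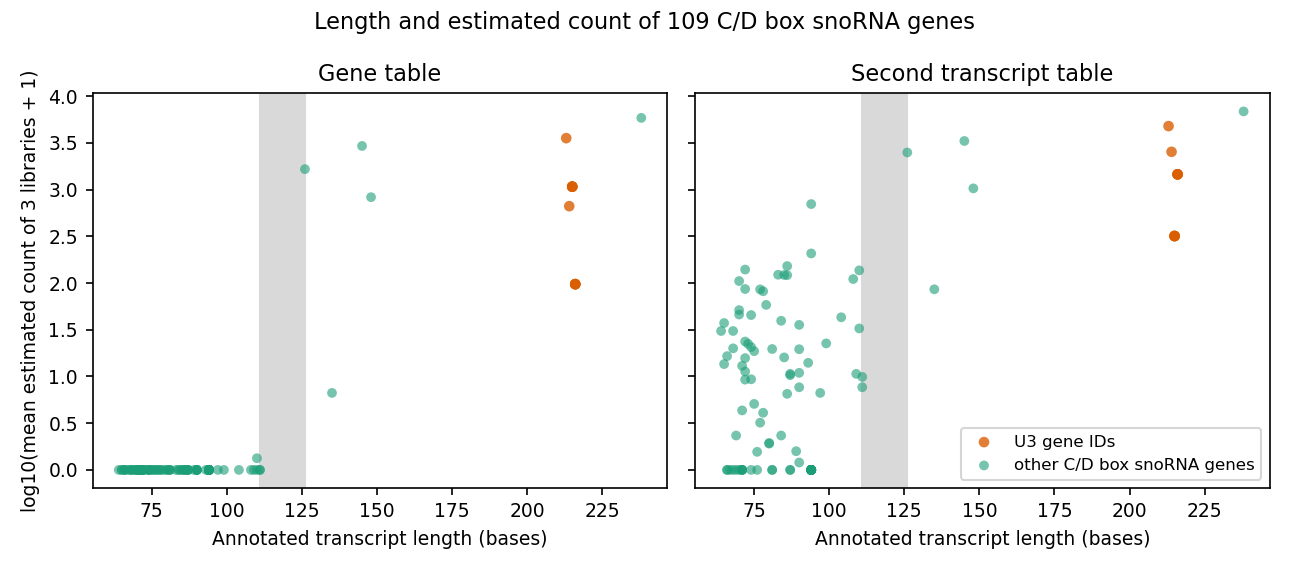
Mean estimated count over 3 libraries, as log10(count + 1), against annotated length for 109 C/D box snoRNA genes in the gene table (left) and the second transcript table (right). Points are gene IDs, with U3 in orange and overlapping points darker; the grey band spans 111 to 126 bases, the gap between the longest member without and the shortest with an effective length in the gene table.

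Across the 109 members, length correlated with mean count (Spearman correlation 0.61) and with mean TPM (0.59) in the gene table. The 94 shortest members had a TPM of 0 and at most 1 count there, so a positive correlation over all 109 was bound to follow. The correlation in the second table was 0.30 for counts and 0.27 for TPM. Among the 94 members without an effective length in the gene table, the correlation in the second table was -0.084 for counts and -0.10 for TPM. Among the 15 members with a mean of 1 or more counts in the gene table, the correlation was -0.19 for counts and -0.42 for TPM. Of these 15, 10 are U3 IDs of nearly equal length. These correlations run across genes that share libraries, so they are descriptions without a test.

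By counts C/D box snoRNAs were a small part of each library, and by TPM a large one. Their share of the gene table's counts was 0.183%, 0.103% and 0.107% in replicates 1, 2 and 3, and their share of its TPM 11.2%, 14.96% and 14.7%. The mean was 0.131% ± 0.0450 of counts and 13.6% ± 2.11 of TPM (SD, n = 3). H/ACA and Cajal body RNAs held 0.260% ± 0.0731 of counts and 4.69% ± 1.71 of TPM (SD, n = 3). C/D box snoRNAs were therefore below the H/ACA set by counts and above it by TPM in each of the 3 libraries. The second table gave them 0.123% ± 0.0269 of counts and 3.05% ± 0.563 of TPM, against 0.186% ± 0.0593 and 1.85% ± 0.663 for the H/ACA set (SD, n = 3 each). With full length in place of effective length, the C/D share of TPM from the gene-table counts was 1.61%.

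**Figure D2:**
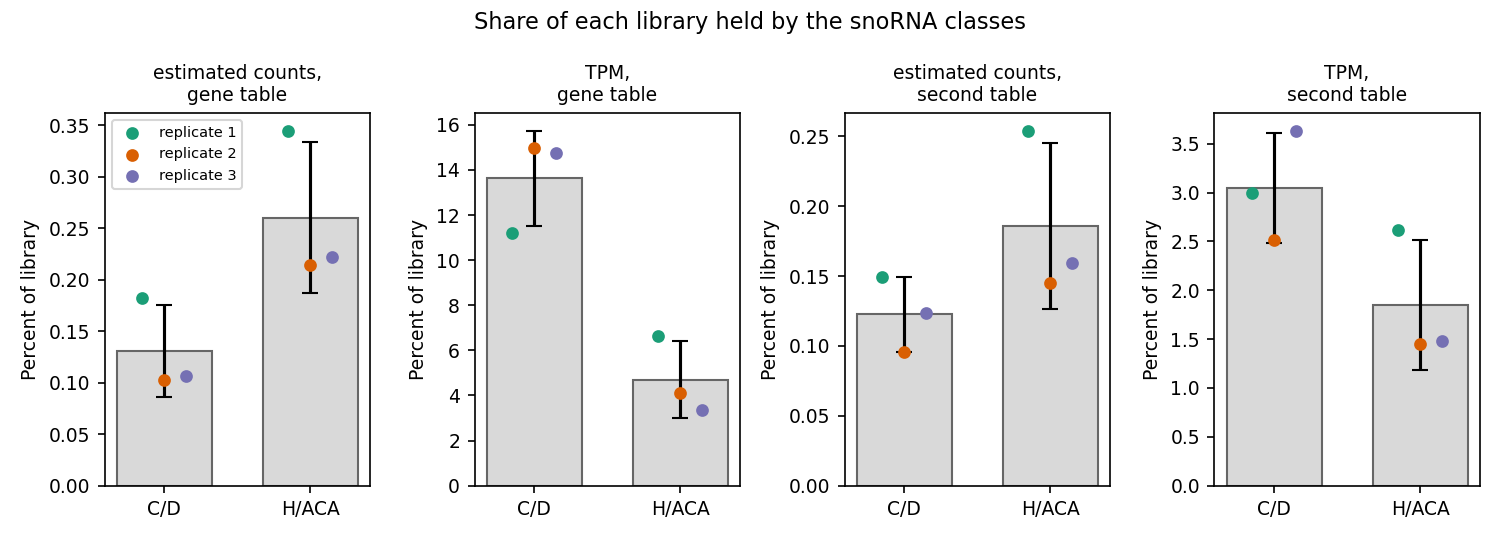
Percent of each library's estimated counts or TPM held by C/D box snoRNA genes and by H/ACA and Cajal body RNA genes, in the gene table and the second transcript table. Bars are means of 3 libraries with SD, and points are libraries; C/D is below H/ACA by counts and above it by TPM in both tables.

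In the gene table Snord22 carried the largest part of the C/D share of TPM. U22 is needed for processing of the small-subunit ribosomal RNA in Xenopus, and its host Snhg1 is a non-coding RNA gene. At 126 bases it had an effective length of 1.43, 1.20 and 1.80 bases, and its 820, 1798 and 2344 counts became 40560, 83804 and 75832 TPM in replicates 1, 2 and 3. The second table had an effective length of 17.95, 20.4 and 24.3 bases and a TPM of 2376, 4620 and 6357 for it, from 1000, 2694 and 3790 counts. Its mean TPM was thus 14.99 times higher in the gene table, although the gene table gave it fewer counts in every library. Snord22 made up 36.2%, 56.0% and 51.5% of the C/D TPM in the gene table, and without it the C/D share of TPM was 6.95% ± 0.328 (SD, n = 3). It made up only 7.92%, 18.4% and 17.5% of the C/D TPM in the second table. U3 held 59.0%, 17.5% and 13.8% there, and Snord15b 8.42%, 14.8% and 18.4%. The host Snhg1 had a TPM of 37.6, 34.5 and 28.6.

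U3 had more gene-table counts than any other member in replicate 1, and fewer than Snord17 in the other 2 libraries. U3 pairs with the leader of the ribosomal RNA precursor and with the precursor of the small-subunit RNA, and is needed for the early cleavages. It was annotated as 10 gene IDs at 5 places, 1 for Rnu3a and 4 for Rnu3b1 to Rnu3b4, each place with 2 IDs that differ by 1 base at the 3′ end. The 4 Rnu3b copies had the same sequence at each length, and the tables gave them equal counts, so the copies cannot be told apart. Rnu3b1 to Rnu3b4 had 2518, 458 and 247 counts each for the 215-base ID and 221, 24.6 and 43.6 for the 216-base ID in replicates 1, 2 and 3. For the 215-base ID of Rnu3b1, the SD from read assignment was 1513, 238 and 149 counts, a large part of the count itself. The second table turned the order of the 2 IDs round, with 942.5, 1.49 and 7.90 counts for 215 bases and 2464, 939 and 963 for 216 bases. Sums are therefore used for the level of each family, while counts of members and the BCV below take the IDs singly unless stated.

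Summed U3 had 20413, 3946 and 2329 counts in replicates 1, 2 and 3 in the gene table. That was 71.2%, 23.9% and 15.2% of all C/D counts. As CPM, which are counts set to a common library size and here scaled with edgeR's TMM factors, U3 had 1315, 229.6 and 172.2, so replicate 1 was 5.72 times replicate 2 and 7.63 times replicate 3. Rnu3a and Rnu3b did the same, with 609, 117 and 86.2 CPM for the 2 IDs of Rnu3a and 705, 112 and 86.0 CPM for the 8 IDs of Rnu3b. The second table gave 1128, 275 and 384 CPM for U3, with replicate 1 at 4.10 times replicate 2 and 2.94 times replicate 3. Replicate 1 was highest in both tables, while replicates 2 and 3 changed order between them. Tex14, whose introns hold the Rnu3b copies, had a TPM of 0.17, 0.12 and 0.01 in the gene table. In the second table Tex14 had 9.80, 9.73 and 7.46, and summed Rnu3b was far above it in both. Non-member genes of at least 90% identity to U3 had 1, 0 and 0 counts in the gene table in all.

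Snord17, the longest member, was the steadiest. Snord17 guides methylation of the large-subunit ribosomal RNA in human. Its scaled CPM was 361, 416 and 354 for replicates 1, 2 and 3 in the gene table, and 272, 275 and 247 in the second. The highest library was 1.18 times the lowest in the gene table and 1.11 times in the second. Its host Snx5, a sorting nexin gene, had a TPM of 348, 306 and 265.

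The U15 pair in Rps3, guides for the large-subunit RNA in human, ran the other way from U3. The scaled CPM of Snord15b was 88.6, 150.1 and 357 for replicates 1, 2 and 3, and that of Snord15a 30.0, 57.6 and 76.0. Both were lowest in replicate 1, and Snord15b spread over 4.03 times and Snord15a over 2.53 times. Per length, Snord15b was higher than Snord15a in 3 of 3 libraries, by 1.77, 1.59 and 2.42 on the log2 TPM scale in the gene table. The mean difference was 1.93 ± 0.44 (SD, n = 3). A two-sided exact permutation test by sign flips gave p = 0.25, which is the smallest value that 3 libraries allow. It was 1.66 ± 0.45 in the second table, with the same exact p of 0.25 (SD, n = 3). With 5 such tests of pairs in 1 host, the adjusted p was 0.312. Rps3 had a TPM of 20.5, 17.5 and 12.4, so the host was not lowest in replicate 1.

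**Figure D3:**
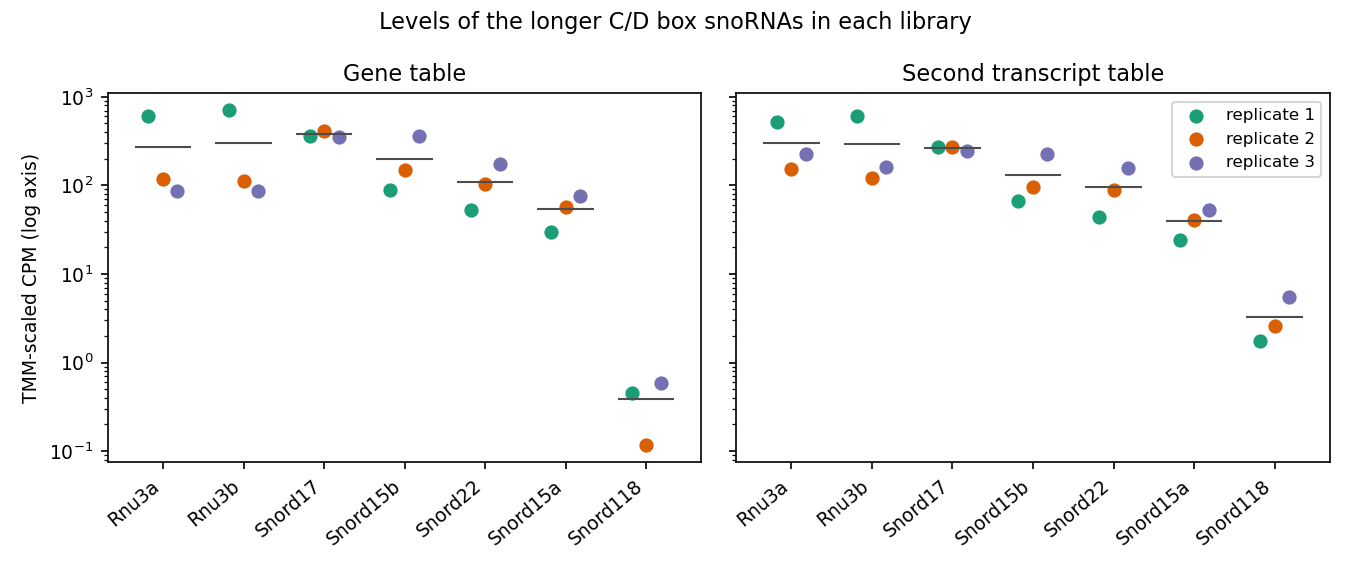
TMM-scaled CPM on a log axis for Rnu3a and Rnu3b (summed over their gene IDs), Snord17, Snord15b, Snord22, Snord15a and Snord118 in the gene table (left) and the second transcript table (right). Points are libraries and lines their means; replicate 1 is highest for both U3 families and lowest for Snord15b, Snord22 and Snord15a in both tables.

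Apart from Snord22, the other RNAs of ribosomal RNA processing had far fewer counts than U3 in both tables. U8 acts in processing of the large-subunit RNA in Xenopus, and U13 pairs with the small-subunit RNA. Snord118 had 7, 2 and 8 counts in the gene table and 39, 80 and 135 in the second, in replicates 1, 2 and 3. Snord13 (U13, 104 bases) had 0 in the gene table and 8, 40 and 78 counts in the second. U14, which in yeast both guides methylation and is needed to make the small-subunit RNA, had 4 members. Snord14c and Snord14d in Hspa8, a heat shock protein gene, had 9.42, 149 and 203 counts and 8.42, 207 and 237 counts in the second table. Snord14e in the same gene had 0, 19.6 and 36.1, and Snord14a in Rps13 was at 0 in all. All of the counted ones were lowest in replicate 1 after scaling, except that Snord118 was lowest in replicate 2 in the gene table, on 2 counts. Hspa8 itself was highest in replicate 1, with a TPM of 101, 55.0 and 36.5. Snord14c and Snord14d share up to 97.7% of positions, so their split is uncertain.

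Among the short guides, Snord21 had the highest mean level in the second table and was very uneven. Snord21, in Rpl5, guides methylation of the large-subunit RNA in human. It had 37.6, 410 and 1649 estimated counts in the second table, or 1.69, 13.3 and 67.9 scaled CPM, so replicate 3 was 40.3 times replicate 1. Rpl5 showed no such spread, with a TPM of 62.5, 56.4 and 42.9. Snord83b and Snord43 in Rpl3 had 129, 257 and 233 counts and 116, 112 and 100 counts. Snord71 in Ap1g1 had 105, 155 and 103, and Snord53 in Wdr43 had 66, 94 and 82. After scaling, Snord71 spread over 1.19 times, Snord53 over 1.15 times and Snord43 over 1.41 times, so none of these 3 reached a ratio of 2. These short guides were chosen after their values were seen.

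Other short guides covered a range of patterns in the second table. In the non-coding host 2410006H16Rik, Snord49a had 59, 84 and 113 counts in replicates 1, 2 and 3, Snord49b 45, 163 and 207, and Snord65 12, 28 and 28. Snord89 in Gm15832 had 66, 137 and 204 counts, and Snord104, which lies in no host, 29, 79 and 204. These 5 were lowest in replicate 1 after scaling. A few guides were highest there, among them Snord37 in Eef2 with 43, 22 and 24 counts and Snord91a in Tsr1 with 17, 11 and 11. After scaling, 13 of the 38 intron members other than U3 and Snord116 were highest in replicate 1 and 19 were lowest in it. Of the 41 members in host exons, 22 were lowest in replicate 1, 0 were highest, and 14 were at 0 in all libraries. No share of all genes is given for these calls, so they lack a background. They also used no count filter, and some rest on very few counts, such as Snord42b in an exon with 0, 1 and 3. Among genes passing the count filter described below, replicate 1 was below the mean of the others for 53.7% of 25056 genes. The share was 45.9% of 37 in the H/ACA set. It was below that mean for 18 of 27 intron members and 15 of 15 exon members. Some of these exon members passed the filter only through replicates 2 and 3. All guides of this paragraph were chosen after their values were seen.

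The members in 3 well-studied host genes differed from each other in level. Gas5, a non-coding RNA gene, had a TPM of 132, 145 and 118 and holds 4 member IDs. Of these Snord47 had 0, 101 and 153 counts in the second table, 1 ID of Snord80 had 6.6 counts in replicate 3, and Snord78 and the other Snord80 ID had 0. Rpl13a, a ribosomal protein gene, had a TPM of 54.0, 38.5 and 32.8. Its 4 members, which guide ribosomal RNA methylation in human, were lowest in replicate 1. Snord32a had 28, 137 and 200 counts, Snord34 7, 63 and 65, Snord35a 11, 37 and 56, and Snord33 0.700, 34.3 and 80.3. In Snhg1 only Snord22 is annotated among the members.

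The 17 Snord116 copies had 0 counts in every library and both tables. Snord116 belongs to an imprinted cluster that is expressed from the paternal allele mainly in neurons, and it has no known ribosomal RNA target. A count of 0 allows up to 3 counts, or 0.125, 0.107 and 0.120 CPM in replicates 1, 2 and 3 of the second table, for counting error only. The 17 copies have 4 distinct sequences with at least 94.7% identity, and the 53 unnamed near copies were at 0 as well. Their host Snhg14 was not at 0, with a TPM of 11.8, 16.2 and 14.9. Snord64 and Snord107 from the same region also had 0 counts. Snord113, Snord114 and Snord115 were not among the symbols analysed here.

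Spread between libraries was larger for C/D box snoRNAs than for genes in general. Among the 14 members with a mean of 10 or more rounded counts in the gene table, 13 had a highest library at least 2 times the lowest, against 14 of 21 H/ACA and Cajal body RNAs and 11.3% of all genes. Snord17 was the exception. The common biological coefficient of variation (BCV, edgeR's measure of spread between replicates) was 0.957 for these members, 0.490 for the H/ACA set and 0.183 for all genes. For the 88 other genes of at most 238 bases that passed the same filter it was 0.615, and 45 of them passed the ratio. The 14 include 10 U3 IDs from 1 family. With U3 summed to Rnu3a and Rnu3b, 5 of 6 passed and the BCV was 0.730, and without U3 it was 3 of 4 and 0.498. Without replicate 1, 6 of 14 passed and the BCV was 0.399, against 4.90% and 0.143 for all genes. Of 55 members in the second table, 43 passed, against 21 of 37 in the H/ACA set and 16.9% of all genes, with a BCV of 1.10, 0.521 and 0.227.

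Replicate 1 of the second table stood apart in opposite directions within the class. It was at least 2 times both other libraries for 10 of the 55 members, all of them U3 IDs, against 3 of 37 in the H/ACA set and 0.958% of all genes. These 10 IDs belong to Rnu3a and Rnu3b and share reads, so they are not 10 separate cases. Summed, U3 in replicate 1 was 4.10 times replicate 2 and 2.94 times replicate 3. Replicate 1 was at most 0.5 times both others for 23 of the 55, none of them U3, against 5 H/ACA and Cajal body RNAs and 6.63% of all genes. In the gene table the upward call was made for the 10 U3 IDs of 14 members and 1.07% of all genes, and the downward call for 0 of 14 and 1.29% of all genes. The gene-table members other than U3 are Snord17, Snord15a, Snord15b and Snord22. On a log2 scale with 0.1 CPM added, replicate 1 minus the mean of the others had a median of -1.51 over the 45 members other than U3, 0.03 over the 37 in the H/ACA set and -0.03 over all 25056 genes. The count filter takes the mean of all 3 libraries. Members at 0 in replicate 1, such as Snord47, passed it only through replicates 2 and 3, and the 215-base Rnu3b IDs only through replicate 1. The second table's calls in both directions and the median of -1.51 rest partly on that selection.

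Replicate 1 also differed from the others in measures of the whole library. Mitochondrial genes held 0.0926%, 0.0407% and 0.0343% of the gene-table counts of replicates 1, 2 and 3, and rows naming no annotated gene 1.16%, 0.459% and 0.351%. Of the 8 macrophage markers, Cd14 differed most, with a scaled CPM in replicate 1 of 2.70 times replicate 2 and 2.05 times replicate 3. No other of the 8 was at least 2 times both. Csf1r was at 1.78 and 1.46 times, Adgre1 at 1.44 and 1.39, and Cd68 at 1.33 and 1.55. Itgam was at 1.07 and 1.39 times, Lyz2 at 1.45 and 2.00, and Spi1 at 1.39 and 1.40. Mertk, at 1.16 and 0.94 times, was the only one of the 8 not highest in replicate 1. The share of all genes highest there is not given. Of all genes, 1.07% were at least 2 times both. The part of these differences in the snoRNA values was not tested.

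Members that overlap an annotated host exon differed from those lying only in introns. A host exon here means that a same-strand exon of another annotated gene, small RNA genes aside, overlaps the snoRNA at least in part. Reads there can be assigned to that gene or to the snoRNA. Apart from U3, 41 members lay in a host exon, 55 only in a host intron and 3 outside any host. Of those with a mean of 10 or more rounded counts in the second table, replicate 1 was at most 0.5 times both others for 13 of 15 in exons, 9 of 27 in introns and 1 of 3 without a host. The same call was made for 6.63% of all genes. The median log2 difference was -3.63, -0.53 and -2.01 for these places. The filter takes the mean of all 3 libraries, so members at 0 in replicate 1, such as Snord47, passed it only through replicates 2 and 3. The exon values rest partly on that selection. In exons, and without Snord15b, Snord22 and Snord21, the summed counts of 38 members were 28.3, 687 and 1047 in replicates 1, 2 and 3. In introns, and without U3, Snord116, Snord17 and Snord15a, the sums of 36 members were 960, 1747 and 1864. Of the intron members other than U3 and Snord116, 34 of the 36 with counts had whole numbers in every library (within 0.01). Of the exon members with counts, 2 of 27 did. No share of all genes or of the H/ACA set is given for whole numbers, so this contrast lacks a background. The fragment length implied by the second table's effective lengths was 207, 190 and 187 bases in replicates 1, 2 and 3, and by the gene table's 206, 238 and 225. The part of read sharing, of fragment length and of starting amount in these differences was not tested.

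**Figure D4:**
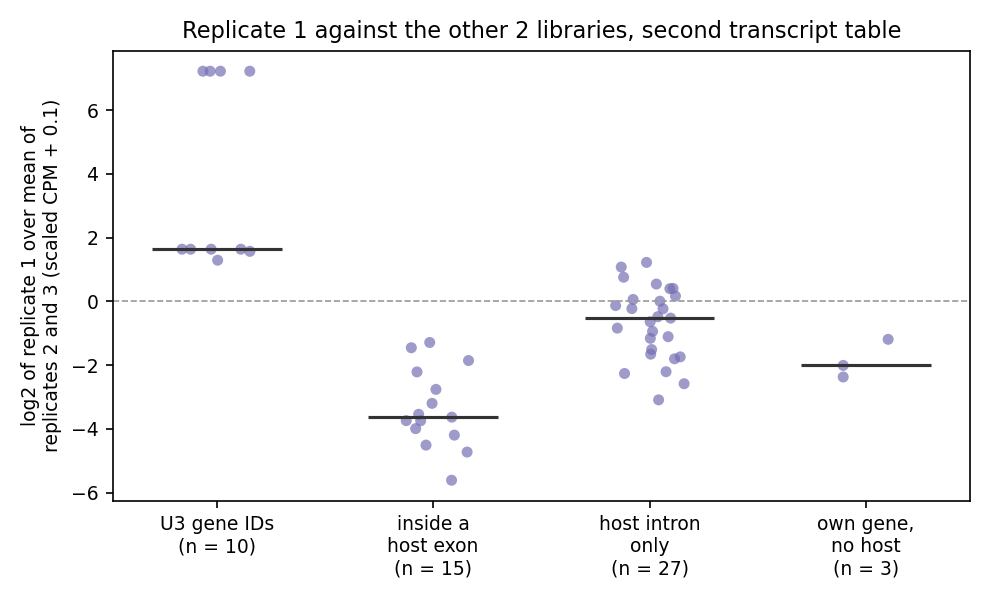
Log2 of replicate 1 over the mean of replicates 2 and 3 (scaled CPM + 0.1, second transcript table) for the 55 C/D box snoRNA gene IDs with a mean of 10 or more rounded counts, by annotated place. Points are gene IDs, lines are medians and the dashed line marks no difference. U3 lies above 0, and every plotted member in a host exon lies below it. Some exon members passed the filter only through replicates 2 and 3. The U3 points are IDs of Rnu3a and Rnu3b, whose counts are split between near-identical IDs.

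The RNAs for C/D snoRNP proteins did not show this spread, with the exception of Rrp9. The 4 core genes Fbl (fibrillarin), Nop56, Nop58 and Snu13 averaged 17.02 ± 1.32, 37.8 ± 8.84, 15.7 ± 2.77 and 4.74 ± 1.13 TPM (SD, n = 3 each). Their scaled CPM spread over 1.17 to 1.31 times. All 5 genes for proteins of the U3 particle were detected, from Imp3 at 3.56 ± 0.38 to Utp11 at 11.6 ± 1.86 TPM (SD, n = 3 each). Rrp9, which binds U3, spread over 2.23 times, with a scaled CPM of 6.76, 4.07 and 9.09 in replicates 1, 2 and 3. Rrp9 was lowest in replicate 2 and highest in replicate 3, so it did not follow U3. All 9 assembly genes, among them Nufip1 and Znhit6, and all 7 export and maturation genes, among them the cap methylase gene Tgs1 and the coilin gene Coil, were detected, and none spread over 2 times. Of the 4 H/ACA core genes 3 were detected. The exception was Nop10, with a TPM of 1.56, 0.84 and 0.07, the only one of these 4 to spread over 2 times. Of all 29 snoRNP protein genes of both classes, 28 were detected, against 24.4% of all genes. The 2-fold ratio was passed by 2 of the 29, against 11.3% of all genes tested in the gene table. Most genes lacked such a spread, so its absence does not set these protein genes apart.

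The median level of C/D box snoRNAs set against the H/ACA set depended on how members without an effective length were treated. The median of log2(TPM + 1) was 0 for all 109 members in the gene table, and C/D minus H/ACA was -5.55, -6.07 and -4.63 in replicates 1, 2 and 3, with a mean of -5.42 ± 0.73 (SD, n = 3). With genes that had an effective length in all libraries, 15 C/D and 48 H/ACA and Cajal body RNAs, it was 4.51 ± 1.77 (SD, n = 3), the opposite sign. Of these 15, 10 are U3 IDs, and the C/D median in every library was the value of the 215-base Rnu3b IDs. That value therefore describes U3 more than the class. With all members of the second table it was -1.64 ± 0.98, and without the Snord116 copies -0.59 ± 0.43 (SD, n = 3 each). The median TPM there was 37.0 ± 15.6 for the 92 members without Snord116 and 53.1 ± 8.40 for the H/ACA set (SD, n = 3 each).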

How the data were processed

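Members, lists and tests were chosen with earlier results of these data known. For each library the authors deposited a gene table and transcript tables for mm10 with the GENCODE M21 annotation, per the deposited readme files. The gene table holds an estimated count, an effective length, a TPM and an SD of the count from read assignment per gene, per the file headers. The second transcript table has estimated counts and TPM that were made directly from the reads, per the same readme files, and its values were summed per gene. Another transcript table was not used. The programs and the strand setting of the counting were not given in the sources used here. Of the members, 3 overlap an exon on the opposite strand, and their values are uncertain.

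Rows naming no annotated gene held 0.351% to 1.16% of counts and were left out. Shares of TPM are of all rows. Estimated counts were rounded and scaled with TMM in edgeR 4.0.16 (R 4.3.3), or with DESeq2 1.42.0 as an alternative. The BCV was fitted with an intercept only for genes with a mean of 10 or more counts, and was tested on simulated data. With 1 group there was no comparison between groups. Genes named were the processing RNAs, the 10 members highest by mean count and by mean TPM, the 4 most and 4 least variable, the imprinted clusters, the members of Gas5, Snhg1 and Rpl13a, and listed protein genes. A listed marker gene is not reported here. Other genes named were chosen after their values were seen. Sequences came from the GENCODE transcripts and were compared with edlib 1.3.9.post1. Correlations used scipy 1.17.1. Starting amounts, doses and sizes are per the labels. Intervals and limits for 0 cover counting error only. Alternatives were leaving out each library, the second table, other filters, scalings, pseudocounts and lengths.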

Additional observations from a re-analysis of the deposited data

How the results depend on the processing

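No paired analysis was possible because there was 1 group. Leaving out each library in turn gave 15 detected members each time, which are the 15 with an effective length. Leaving libraries out gave a share of 0.105% to 0.145% of counts and 13.0% to 14.8% of TPM, and C/D minus H/ACA of -5.81 to -5.09. It gave 6 to 13 members past the 2-fold ratio, a BCV of 0.399 to 1.02, and a Spearman correlation of length of 0.60 to 0.61 with counts and 0.59 with TPM each time. Without replicate 1 the ratio and the BCV both fell below 0.5 times their values with all libraries.

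In the second table detection moved to 51 members, the TPM share to 3.05%, C/D minus H/ACA to -1.64, the ratio count to 43, and the correlation of length with counts and with TPM to 0.30 and 0.27. With full length the TPM share was 1.61%, C/D minus H/ACA -1.77 and the correlation of length with TPM 0.61. C/D minus H/ACA was -8.71 with a pseudocount of 0.1 and -0.19 on log2(CPM + 1). It reversed to 3.02 with only genes of TPM 0.1 or more in some library, which leaves 15 C/D genes, 10 of them U3 IDs. The correlation of length with counts and TPM reversed to -0.19 and -0.42 in members with a mean of 1 or more counts.

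The following were chosen after seeing the data. Without U3 the count share was 0.0738%, the ratio count 3 and the BCV 0.498, and in the second table the ratio count was 33. With U3 summed the ratio count was 5. Without Snord22 the TPM share was 6.95%. C/D minus H/ACA reversed to 4.51 with genes of nonzero effective length, was -0.90 on log2(CPM + 1) in the second table and -0.59 there without Snord116. In the second table the length correlations reversed to -0.084 and -0.095 in the 94 short members, and were 0.24 and 0.21 in members with a mean of 1 or more counts and no U3. The cause of these shifts was not tested beyond what each choice leaves in. Other alternatives stayed within the limits set. Values of short members rest on few counts and on effective lengths near 14 bases.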
